A study of Homo sapiens with 6 samples.

Results

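The nuclear-encoded subunits of respiratory complex I were followed in RNA that came down with Flag-tagged Ago2 from HEK293 cells, an established human embryonic kidney line. Members were the protein-coding rows of the deposited count table whose symbol begins NDUFA, NDUFB, NDUFC, NDUFS or NDUFV followed by a number, or is NDUFAB1, and the NDUFAF assembly factors were kept apart. This gave 40 rows for 38 gene symbols among 48162 rows, spread over 18 chromosomes. All cells were HEK293 cells given Flag-Ago2, the Argonaute protein that holds a microRNA and its target message together. They received with it either a mir-219 mimic (3 libraries) or a negative control mimic (3 libraries), and each group had 1 library dated 22 August, 1 dated 5 September and 1 dated 18 September. The labels do not say whether the dates were separate cultures, so p-values measure the spread between these libraries, which may be technical. Input RNA was not analysed here, so a level mixes how much of a transcript the cells held with how much was bound to Ago2, and in such bulk samples fewer cells with a transcript and less RNA per cell cannot be told apart.

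Complex I is the entry point for electrons from NADH into the mitochondrial respiratory chain. Its core subunits carry out NADH oxidation, electron transfer along iron-sulfur clusters, quinone reduction and proton pumping. The pumping core is encoded by mitochondrial DNA, while the hydrophilic core and the accessory subunits around both arms are encoded in the nucleus and imported. Kidney epithelium relies on this chain for the ATP that drives transport, although HEK293 cells in culture also use glycolysis. A microRNA guides Ago2 to messages mainly through pairing with its seed, bases 2 to 8 of the mature strand, so targets of the mimic would be looked for among messages that are higher in the mimic precipitates.

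The labels name the mimic only as mir-219 and do not say which strand it carries. The mature strands of both loci of microRNA-219a, from RefSeq on GRCh38.p14, are shown with the seed in capitals, since the seed is the part that would choose the messages. The 5p strand is the same from MIR219A1 (chr6:33207855-33207875, plus strand) and from MIR219A2 (chr9:128392676-128392696, minus strand), while the 3p strands of the loci differ in sequence and in seed.
hsa-miR-219a-5p: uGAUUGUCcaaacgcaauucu
hsa-miR-219a-1-3p: aGAGUUGAgucuggacgucccg
hsa-miR-219a-2-3p: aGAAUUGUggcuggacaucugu
Transcript sequences were not used here, so no seed matches were counted in the complex I messages.

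The libraries held 20233819 to 34408699 counts. Reads of AGO2, which was transfected into all cells, made up 13.5, 16.7 and 12.6% of a mimic library, against 11.7, 18.0 and 10.6% of a control library, in the order 22 August, 5 September and 18 September, which is used throughout. The HEK293 markers VIM, KRT8, KRT18, PAX2, NEFL, NEFM and LIN28B were detected in all 6 libraries. Transcripts foreign to an embryonic kidney line were present in some libraries. A list of intestine and plasma cell markers, 9 of them in the table, summed to 0.127, 12.7 and 20.9 CPM (counts scaled to the library total) with the mimic, against 38.8, 0.116 and 35.3 CPM with the control. The mimic library of 22 August and the control library of 5 September therefore stood apart from the other 4, with 2 of 9 markers detected in each, while the other 4 had 7 or 8 of 9. IGHA1, IGHA2, FABP1 and TFF3 were at 0 in both, and IGKC was at 0 in all 6 libraries. The haemoglobin gene HBB stood at 678 CPM in 1 library, the control of 5 September, and elsewhere did not exceed 0.10 CPM, and a list of muscle and liver markers summed to between 1.52 and 4.47 CPM in every library. Complex I values are given below with these libraries and without them.

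Complex I transcripts spanned a wide range of levels in the precipitates. Dividing by the gene length in the deposited table, the 37 members with enough counts to test spanned a 136-fold range in mean RPKM (reads per kilobase of gene, scaled to the library total) over all 6 libraries. NDUFB10, an accessory subunit of the distal membrane arm, was the highest. It had 110, 95.3 and 124 RPKM with the mimic, against 124, 93.8 and 153 with the control. NDUFS5, which sits on the intermembrane-space face, had 81.2, 93.8 and 89.1 RPKM with the mimic, against 125, 76.3 and 114 with the control. NDUFB7, another intermembrane-space subunit, had 65.0, 59.5 and 59.3 RPKM with the mimic, against 77.6, 57.4 and 80.2 with the control. The ranges of NDUFB10 and NDUFS5 overlapped, since the highest library of NDUFS5 stood above the mean of NDUFB10 (117 RPKM).

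**Figure D1:**
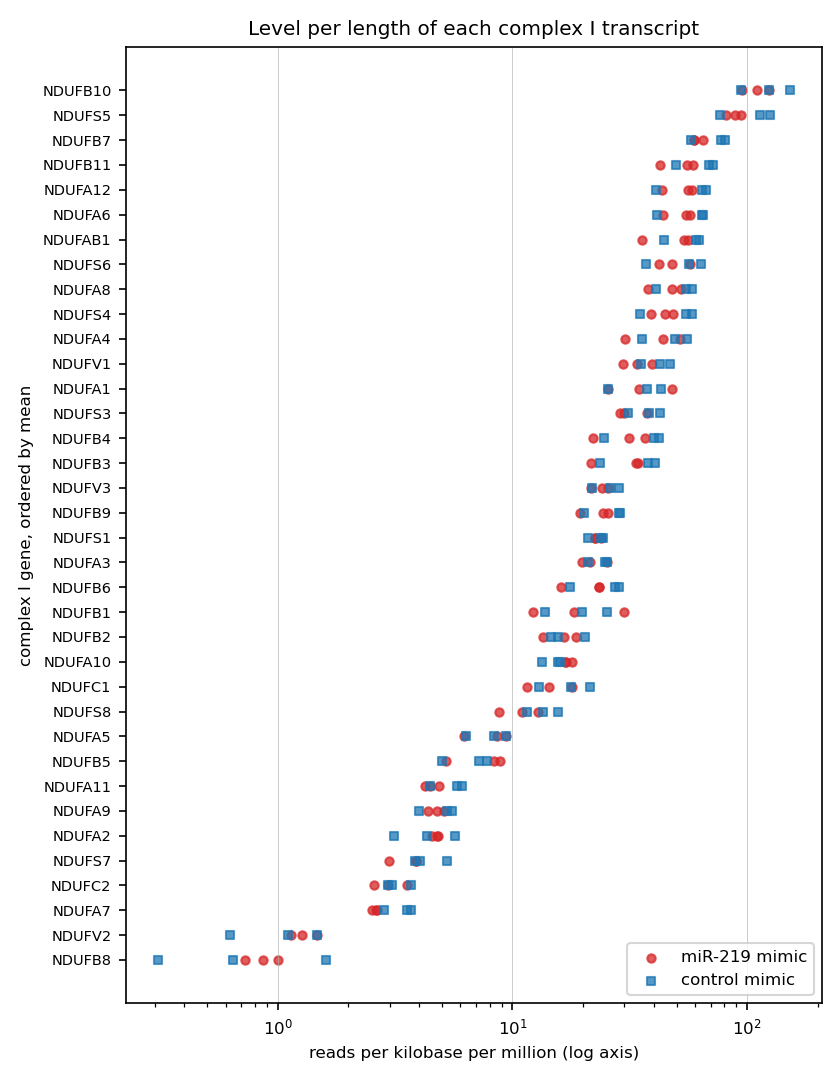
Level of complex I transcripts in RPKM (log axis, levels divided by the deposited gene length), with 1 circle per mimic library and 1 square per control library and genes ordered by their mean. NDUFB10 averaged 117 RPKM and NDUFB8 0.859 RPKM, and the mimic and control points interleave for nearly every gene.

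Several of the lowest members lie on loci that the annotation shares with other genes. NDUFB8 (ENSG00000166136, chr10:102267203-102289757 on hg19, minus strand) had 26, 35 and 23 counts with the mimic, against 50, 27 and 8 with the control. Its second gene ID, ENSG00000255339, lies over the same bases and had 0 counts in every library. NDUFA7 likewise had 44, 45 and 34 counts with the mimic, against 56, 72 and 36 with the control under ENSG00000267855, and at most 1 count per library under ENSG00000167774. NDUFV2, a core subunit that carries an iron-sulfur cluster, had 31, 34 and 30 counts with the mimic, against 35, 20 and 22 with the control. The processed copy NDUFV2P1 on chromosome 19 had more reads than its parent, with 56, 77 and 85 counts with the mimic, against 86, 81 and 89 with the control. NDUFA13, whose product is also known as GRIM-19, had 10, 2 and 3 counts with the mimic, against 6, 17 and 4 with the control, and its locus overlaps YJEFN3. NDUFA13 and the second IDs of NDUFA7 and NDUFB8 did not pass the filter on low counts. In all, 24 member rows overlap another gene, 15 of them on the same strand, and of 22 NDUF pseudogene rows 15 had 0 counts and 2 had 10 or more in all. How reads in shared bases or on the opposite strand were assigned is not given in the sources used here, so the levels of NDUFB8, NDUFA7, NDUFV2, NDUFA13 and the other overlapping members are uncertain.

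With the mimic, no complex I transcript differed from the control beyond the spread between libraries when the 3 libraries of each group were compared. In edgeR's quasi-likelihood test over 16233 genes, 0 of 37 members passed an adjusted p of 0.05 (Benjamini-Hochberg) in either direction, and among all genes 0.0% passed with a higher and 0.0% with a lower level. Without adjustment, 0 members had a p under 0.05, against 3.01% of all genes (1.74% higher and 1.26% lower), and DESeq2 also called 0 members at its adjusted threshold. The median log2 fold change of the members was -0.15, with 29 of 37 below 0, where 49.7% of all tested genes were below 0 and their median was 0.00. Without both libraries of 22 August the member median was 0.04, and without both of 5 September it was -0.31. The standard errors of the members ran from 0.13 to 0.47 with a median of 0.19, and the 95% confidence interval stayed within a 2-fold change for 35 of 37 members, against 84.4% of all tested genes. The intervals of NDUFB8 and NDUFV2, both with few counts, were wider than that.

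**Figure D2:**
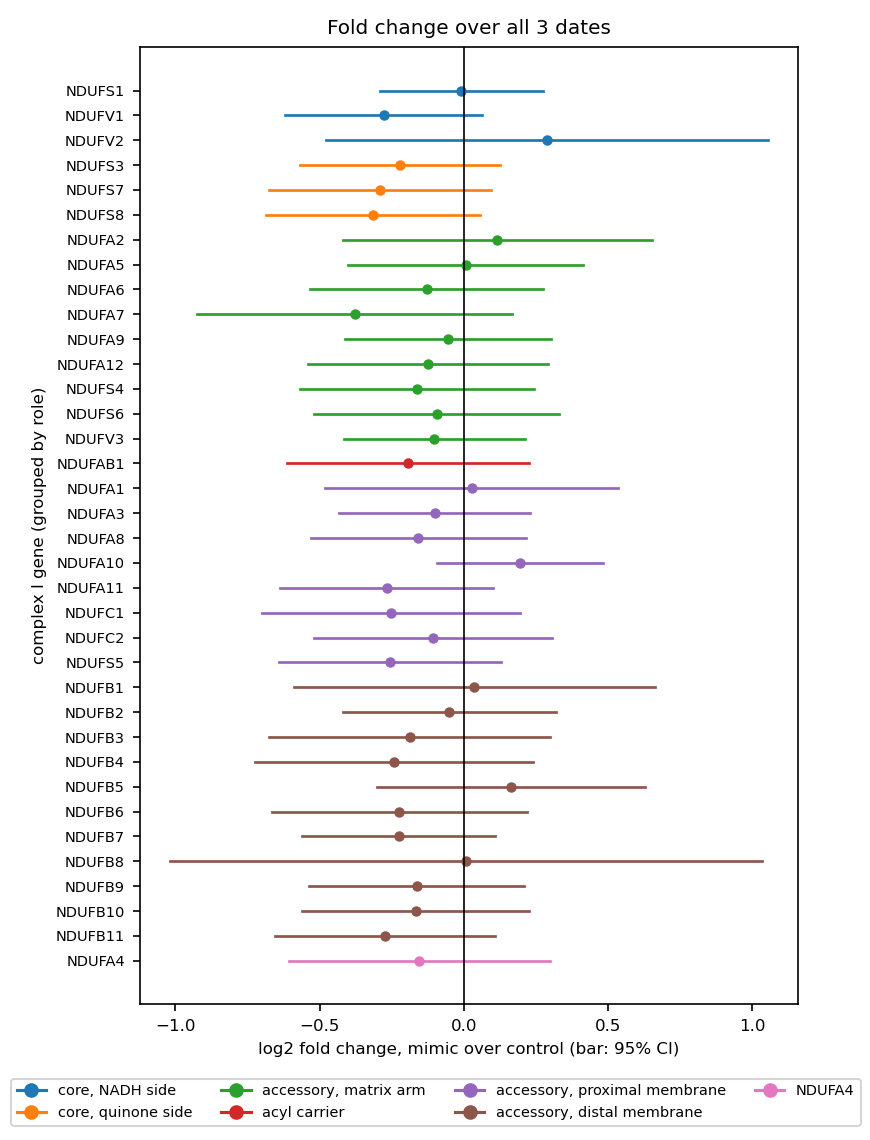
Log2 fold change of complex I transcripts, mimic over control (edgeR, all 6 libraries), with its 95% confidence interval and coloured by role. Every interval shown crosses 0, and most points lie below 0.

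Among the core subunits that lead to and form the quinone site, NDUFS8, NDUFS7 and NDUFS3 had lower means with the mimic, without passing the test. NDUFS8 (ENSG00000110717, chr11:67798084-67804111 on hg19, plus strand), which holds iron-sulfur clusters next to that site, had 33.6, 26.9 and 39.6 normalized CPM with the mimic, against 41.2, 35.4 and 48.0 with the control. Each mimic library was below the control library of its date, but the groups overlapped (log2 fold change -0.32, SE 0.17, edgeR unadjusted p = 0.0880, adjusted p = 0.999). NDUFS7, which carries the last cluster before quinone, had 14.5, 11.1 and 14.5 normalized CPM with the mimic, against 15, 14.4 and 19.7 with the control (log2 fold change -0.29, SE 0.18). NDUFS3, on the arm between the NADH and quinone sites, had 53.0, 50.8 and 66.0 normalized CPM with the mimic, against 67.8, 55.0 and 75.1 with the control (log2 fold change -0.22, SE 0.16). Both were lower with the mimic on every date, with groups that overlapped.

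The 3 core subunits of the NADH site did not share a direction. NDUFV1 (ENSG00000167792, chr11:67374323-67380006 on hg19, plus strand), which binds NADH and the flavin, had 68.5, 51.5 and 59.5 normalized CPM with the mimic, against 82.0, 61.4 and 74.2 with the control. It was lower with the mimic by a similar amount on each date, with log2 ratios of -0.26, -0.25 and -0.32, although its groups overlapped over the dates (log2 fold change -0.28, SE 0.16, edgeR unadjusted p = 0.102, adjusted p = 0.999). NDUFS1, the largest core subunit, had 117, 124 and 117 normalized CPM with the mimic, against 125, 110 and 127 with the control, nearly the same in all libraries (log2 fold change -0.01, SE 0.13). NDUFV2 had 1.07, 1.20 and 1.39 normalized CPM with the mimic, against 1.39, 0.591 and 1.04 with the control, and its standard error of 0.35 was larger than its log2 fold change of 0.29. With the date as a replicate block, the unadjusted p was 0.0152 for NDUFS8 and 0.0240 for NDUFV1, and both had an adjusted p of 0.824. These were the 2 members below an unadjusted p of 0.05 in that fit, lower with the mimic, as were 2.73% of all genes.

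Among the accessory subunits, 1 gene stood lower and 1 higher in every mimic library than in every control library. NDUFA7 (chr19:8373490-8386280 on hg19, minus strand), a matrix-side accessory subunit, had 1.52, 1.59 and 1.57 normalized CPM with the mimic, against 2.22, 2.13 and 1.71 with the control. The gap to the nearest control library was small and the counts behind it were few (log2 fold change -0.38, SE 0.25, edgeR adjusted p = 0.999). NDUFA10 (ENSG00000130414, chr2:240831867-240964819 on hg19, minus strand), a subunit with the fold of a nucleoside kinase, had 81.9, 83.1 and 87.7 normalized CPM with the mimic, against 78.3, 65.7 and 77.0 with the control. It was the only member higher on all 3 dates, by log2 ratios of 0.06, 0.34 and 0.19 (log2 fold change 0.19, SE 0.13, edgeR adjusted p = 0.999). Non-overlapping groups with the mimic lower were found for 3.84% of all genes, and with the mimic higher for 4.22%, so 1 member of 37 in each direction is near the background. An exact two-sided permutation test of 3 libraries against 3 cannot give a p below 0.1, which both genes had.

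The other accessory subunits with the lowest unadjusted p had overlapping groups too. NDUFB11, a distal membrane-arm subunit encoded on the X chromosome, had 59.1, 76.6 and 81.9 normalized CPM with the mimic, against 95.1, 68.8 and 99.3 with the control (log2 fold change -0.27, SE 0.17). NDUFA11, at the junction of the membrane arm, had 10.2, 11.7 and 10.7 normalized CPM with the mimic, against 14.6, 13.9 and 10.7 with the control (log2 fold change -0.27, SE 0.17). NDUFB7 had 34.5, 31.6 and 31.5 normalized CPM with the mimic, against 41.2, 30.5 and 42.6 with the control (log2 fold change -0.23, SE 0.15). In all 3 the lowest control library was below at least 1 mimic library. NDUFB5, a membrane-arm subunit with a single span, had 21.1, 33.6 and 35.8 normalized CPM with the mimic, against 29.1, 20.3 and 31.5 with the control (log2 fold change 0.16, SE 0.21). NDUFA2, which has a thioredoxin-like fold, had 3.66, 3.88 and 3.84 normalized CPM with the mimic, against 4.56, 2.51 and 3.47 with the control (log2 fold change 0.12, SE 0.25). For both, the mimic was lower on 22 August and higher on the other dates.

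The remaining members named for their level or rank gave no clearer difference. NDUFS5 had a log2 fold change of -0.26 (SE 0.18), with 44.5, 51.4 and 48.8 normalized CPM with the mimic, against 68.7, 41.8 and 62.4 with the control. NDUFB10 had 106, 91.3 and 119 normalized CPM with the mimic, against 119, 89.8 and 146 with the control (log2 fold change -0.17, SE 0.18). NDUFC2, of the membrane arm, had 6.46, 7.40 and 8.93 normalized CPM with the mimic, against 9.33, 7.45 and 7.74 with the control (log2 fold change -0.11, SE 0.19). For NDUFS5 and NDUFB10 the control libraries were more spread than the mimic libraries. NDUFB8 averaged 1.07 ± 0.168 normalized CPM with the mimic and 1.05 ± 0.832 with the control (SD, n = 3 each). By role, the median log2 fold change was -0.10 for the 9 tested accessory subunits of the matrix arm, -0.13 for the 8 of the proximal membrane arm and -0.17 for the 11 of the distal membrane arm. These medians depended on single libraries. Without the control library of 5 September they were -0.29, -0.20 and -0.33 in that order, without the control library of 22 August 0.00367, -0.05 and -0.10, and without the mimic library of 22 August -0.02, -0.03 and -0.05, so that the matrix-arm median changed sign in 1 case. NDUFAB1, the mitochondrial acyl carrier protein that also serves fatty acid and lipoic acid synthesis, had -0.19, and NDUFA4, which is now placed in complex IV, had -0.15.

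The direction of the complex I transcripts depended on the date. On 22 August, 36 of 37 members were lower in the mimic library than in the control library, with a median log2 ratio of -0.53, where 48.0% of all genes were lower. On 5 September, 8 of 37 were lower and the median was 0.30, where 49.9% of all genes were lower. On 18 September, 29 of 37 were lower and the median was -0.16, where 52.5% of all genes were lower. There was 1 library per mimic and date, so these ratios carry no test, and the difference between dates was not tested.

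**Figure D3:**
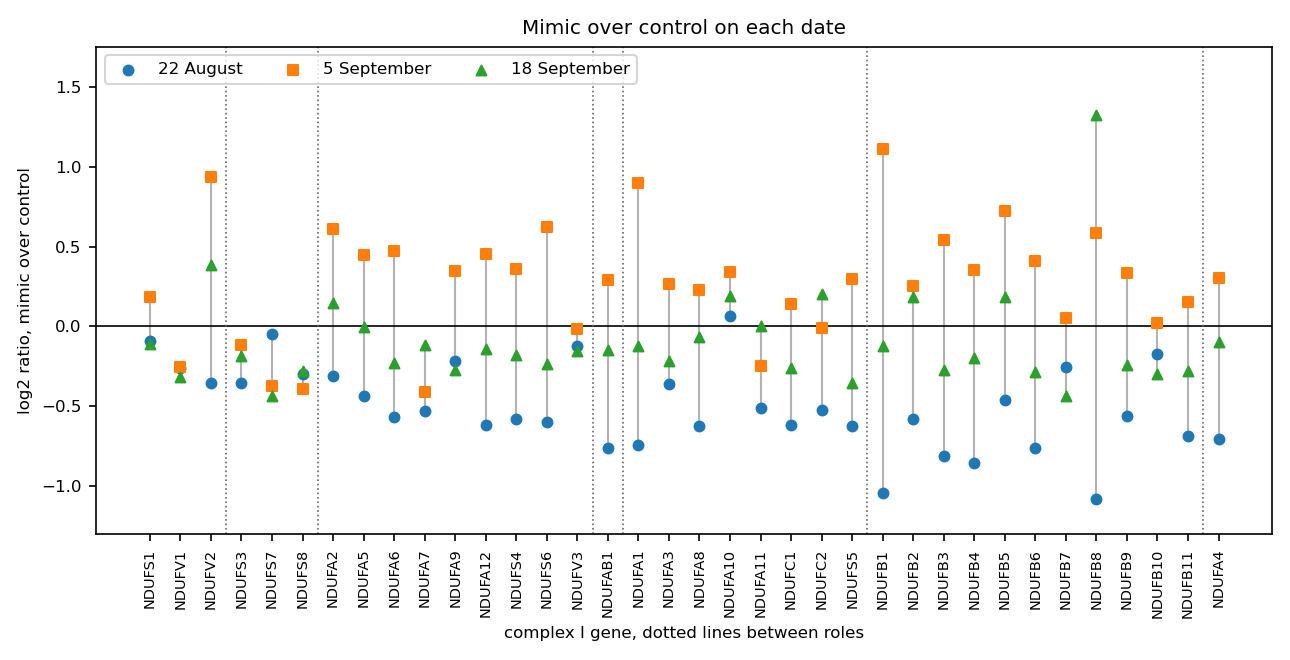
Log2 ratio of the mimic over the control library on each date (prior count 2) for complex I transcripts, with dotted lines between roles. Most circles for 22 August lie below 0 and most squares for 5 September above it, while NDUFV1 and NDUFS8 keep nearly the same ratio on all 3 dates.

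In all, 28 of 37 members were lower with the mimic on 22 August and higher on 5 September, as were 27.8% of all genes. All 11 tested subunits of the distal membrane arm did so, with medians of -0.68 on 22 August, 0.36 on 5 September and -0.24 on 18 September. NDUFB1 (ENSG00000183648, chr14:92582466-92588261 on hg19, minus strand), a small membrane subunit, had the widest spread between dates after NDUFB8, whose counts were few. It had 16.3, 39.8 and 24.3 normalized CPM with the mimic, against 33.7, 18.4 and 26.4 with the control, which gave log2 ratios of -1.05, 1.11 and -0.12 and a log2 fold change of 0.04 over all dates. NDUFA1, a small proximal subunit encoded on the X chromosome, had 19.5, 36.5 and 26.4 normalized CPM with the mimic, against 32.8, 19.5 and 28.7 with the control. For both genes the highest library was the mimic of 5 September and the lowest was the mimic of 22 August or the control of 5 September. NDUFB3 had log2 ratios of -0.81, 0.54 and -0.27, and NDUFB4 of -0.86, 0.36 and -0.20. NDUFA1, NDUFB3, NDUFB4, NDUFV3, NDUFAB1 and NDUFA4 were picked for mention after their values were seen.

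The spread of a gene's 3 log2 ratios, highest minus lowest, had a median of 0.85 over the members. It was 0.47 over all tested genes and 0.84 over the nuclear subunits of complexes II to V. Within complex I it was 1.17 in the distal membrane arm, 0.74 in the proximal membrane arm, 0.92 in the accessory matrix arm and 0.29 among the 7 core subunits. Single core subunits ran from 0.07 for NDUFV1 to 1.29 for NDUFV2, which has few counts, and the difference between these groups was not tested. Lower on all dates were 6 members, namely NDUFS8, NDUFV1, NDUFS7, NDUFS3, NDUFA7 and NDUFV3, a matrix-arm subunit near the flavin site, while 14.4% of all genes were lower on all dates. The 6 of 37 are near that share. Higher on all dates was NDUFA10 alone, against 15.6% of all genes.

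The swing between dates followed the libraries that stood apart. Summed over members, complex I transcripts came to 1347, 1571 and 1666 normalized CPM with the mimic, against 1819, 1335 and 1868 with the control. The low sums were those of the mimic library of 22 August and the control library of 5 September, the same pair that lacked intestine and plasma cell transcripts. In these, 34 and 35 of 37 members were below their own mean over the 6 libraries, and 21 of 37 were below all of the other 4 libraries in both, against 13.3% of all genes. So were 23 of 38 tested nuclear subunits of complexes II to V and 11 of 18 complex I assembly factors. Set against the other 4 libraries in edgeR, this pair had a median member log2 difference of -0.43 with 35 of 37 below 0. No member passed an adjusted p of 0.05 (smallest 0.1, against 0.0616% of all genes called), and 19 were lower at an unadjusted p under 0.05, against 8.59% of all genes. The pair was set apart after the data were seen and from other genes than complex I.

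**Figure D4:**
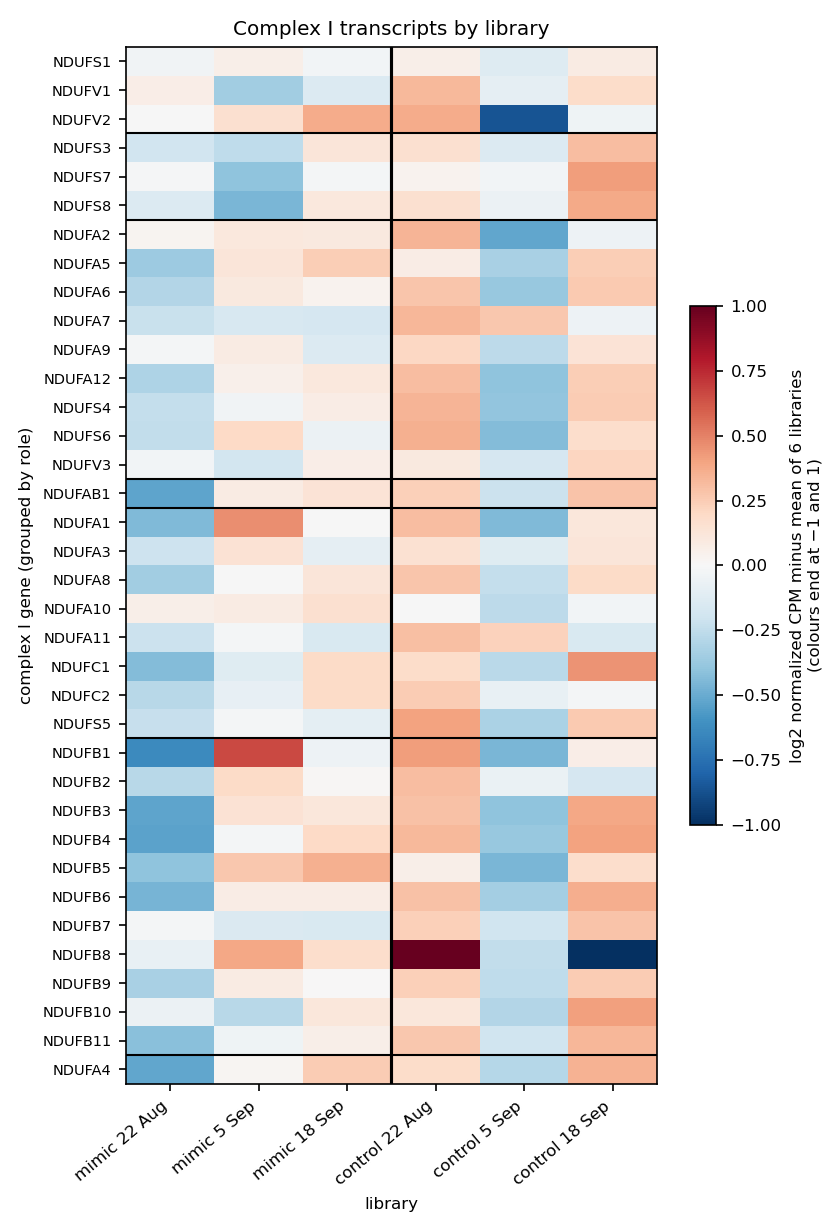
Log2 normalized CPM of complex I transcripts in each library, relative to its mean over the 6 libraries, with genes grouped by role. The columns for the mimic of 22 August and the control of 5 September are low (blue) in most genes, and the colour scale ends at -1 and 1.

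Other measures moved with the pair only in part. The count-weighted gene length, with AGO2 and mitochondrially encoded genes left out, was 4029, 4032 and 3827 bases with the mimic, against 3754, 4057 and 3753 bases with the control, so that the mimic library of 5 September was as long as the pair. Complex I genes are short, with a median length of 1326 bases among the members, against 3148 bases among all tested genes. Across the 37 members, log2 length and the log2 ratio had a Pearson correlation of 0.44, -0.20 and 0.11 on the 3 dates, against 0.31, -0.11 and 0.07 across all genes. These correlations are across genes that share the same libraries and are not independent replicates. With the length trend removed from each library, the member medians were -0.41, 0.21 and -0.15, the same directions as before. Mitochondrially encoded genes made up 13.3, 6.25 and 7.27% of the counts with the mimic, against 8.39, 5.66 and 6.48% with the control. The part of each of these measures in the complex I values was not tested beyond these fits.

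**Figure D5:**
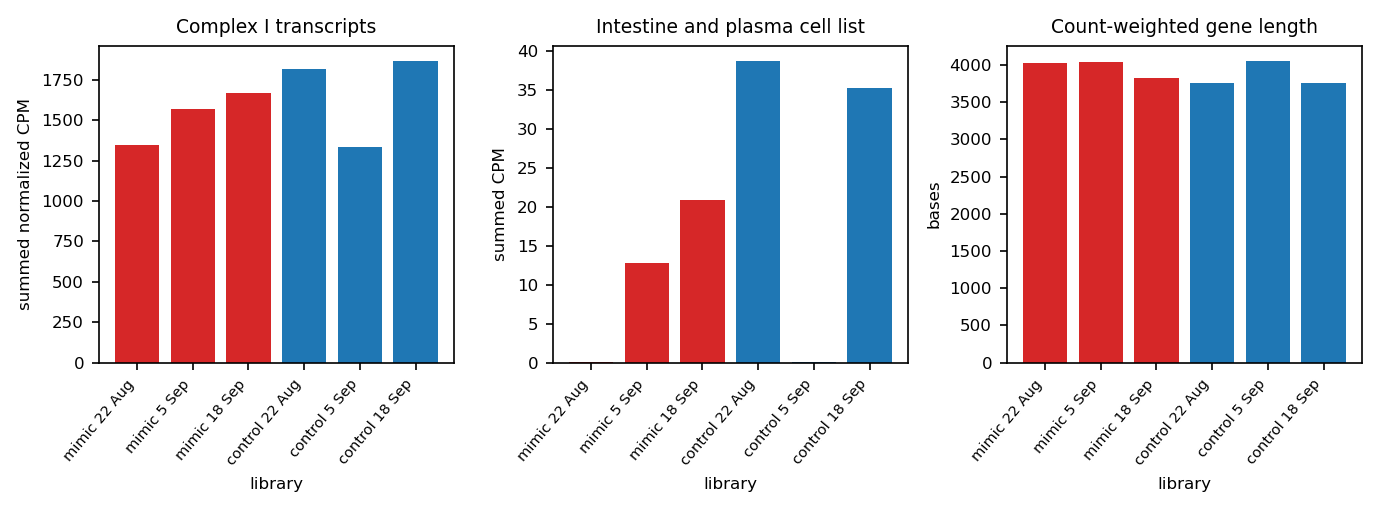
Summed complex I transcripts in normalized CPM, summed intestine and plasma cell list in CPM and count-weighted gene length in bases for each library, with mimic bars left of control bars. The mimic of 22 August (1347 normalized CPM) and the control of 5 September (1335 normalized CPM) have the lowest complex I sums and list sums of 0.127 and 0.116 CPM.

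Accounting for the pair changed the picture only when the date was in the fit as well. With the pair as a term alone, or with only the other 4 libraries, 0 members passed an adjusted p of 0.05, and the member median over the 4 libraries was -0.19. Those 4 are the mimic libraries of 5 and 18 September and the control libraries of 22 August and 18 September. Mimic and date are therefore partly mixed in that comparison. With date and pair together as terms, which leaves 1 residual degree of freedom, edgeR called 11 members lower and 1 higher with the mimic, against 7.95% of all genes lower and 6.37% higher. The members lower in that fit were NDUFS8, NDUFB11, NDUFV1, NDUFB4, NDUFS5, NDUFS3, NDUFAB1, NDUFS7, NDUFB7, NDUFC1 and NDUFB6, and the member higher was NDUFA10. The same fit called 24 of 38 tested nuclear subunits of complexes II to V and 8 of 18 complex I assembly factors lower, and all 7 mitochondrially encoded complex I subunits higher, so such calls were not confined to the complex I members. For the members, log2 fold changes there were close to those without the terms, at -0.32 for NDUFS8 (adjusted p = 0.000403), -0.28 for NDUFV1 (adjusted p = 0.000815) and 0.20 for NDUFA10 (adjusted p = 0.0194). This fit was chosen after the data were seen, and with 1 residual degree of freedom a gene's own spread adds little to its p, which then rests on the spread shared over all genes.

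Between dates, whatever the mimic, complex I transcripts did not pass the test either. In an additive edgeR fit of date and mimic, the test called 0 of 37 members as different between dates (smallest adjusted p = 0.331), against 0.308% of all genes, and 4 members had an unadjusted p under 0.05, against 13.2% of all genes. The number of members called at an adjusted p under 0.05 depended on single libraries. With 1 library left out, its date keeps 1 library, and no share of all genes was set beside the calls. Those counts are therefore not given.

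The rest of the respiratory chain was set beside the members from lists chosen with earlier results of these data known, in the comparison of all 6 libraries with no other term. All 18 complex I assembly factors were tested, 0 passed, and their median log2 fold change was -0.19 with medians of -0.42, 0.05 and -0.14 by date. TMEM186, which helps to assemble the membrane arm, had the lowest p, with 11.1 ± 0.647 normalized CPM with the mimic and 14.2 ± 1.74 with the control (SD, n = 3 each; log2 fold change -0.35, edgeR unadjusted p = 0.0452, adjusted p = 0.999). ACAD9, an acyl-CoA dehydrogenase that also acts in assembly, had a log2 fold change of -0.23. Of 38 tested nuclear subunits of complexes II to V, 0 passed and 35 were below 0. Their median was -0.24, with -0.65, 0.22 and -0.18 by date, the same order of dates as in complex I. SDHD, a membrane anchor of succinate dehydrogenase, had -0.42 and ATP5F1, of the ATP synthase stalk, had -0.32.

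The mitochondrially encoded partners differed in sign from the nuclear members. All 7 mitochondrially encoded complex I subunits had a log2 fold change above 0, with a median of 0.42 and medians of 0.74, 0.11 and 0.15 by date, and 0 passed without the terms for date and pair. Leaving out the 22 August mimic library brought this median to 0.04, and leaving out the 5 September mimic library brought it to 0.65. MT-ND4L had a log2 fold change of 0.61 and MT-ND5 of 0.56, and both encode membrane-arm core subunits, but MT-ND5 was at -0.0117 without both libraries of 22 August and MT-ND4L at -0.0120 in the 4 libraries with intestine transcripts. The 22 August mimic library, where the mitochondrial share of counts was highest, was the one in which 36 of 37 nuclear members were below the control. The control library of 5 September, where 35 of 37 members were below their own mean, had the lowest share (5.66%). How this share and the members relate was not tested. Among 9 transcription factors and coactivators of respiratory genes, 0 passed and the median was -0.05. NRF1, which drives many nuclear respiratory genes, had 0.12 and the coactivator PPRC1 had 0.17.

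The promoters of the members were searched for the motifs of 3 factors known from respiratory genes, in 250 bases before to 50 bases after the start, in RefSeq windows on GRCh38.p14 found for 32 of 38 symbols (39 windows). The NRF1 motif was in 15.4% of member windows on either strand, against 5.78% of all 35116 windows. The ETS motif CCGGAAG, which GABPA can bind, was in 12.8% of member windows, against 10.3% of all. The YY1 motif AAGATGG was in 23.1% of member windows, against 5.84% of all. It stood within 50 bases after the start in 20.5% of member windows, against 2.12% of all, always on the gene's own strand and beginning at base 11 to 26. A match describes these letters only and says nothing of binding in these cells. The letters AAGATGG hold ATG, the letters of a start codon. Whether the matches after the start are the first codons of these genes was not tested.

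The 8 starts with this YY1 motif are shown, with the motif in capitals, because of the 3 motifs this one differed most in share between members and all windows. They lie at chr12:95003665-95003694 (NDUFA12, minus strand), chr19:54102865-54102894 (NDUFA3, plus), chr22:42090729-42090758 (NDUFA6, minus), chr19:8321343-8321372 (NDUFA7, minus), chr12:4649113-4649142 (NDUFA9, plus), chr10:100529836-100529865 (NDUFB8, minus), chr5:53560649-53560678 (NDUFS4, plus) and chr19:1383913-1383942 (NDUFS7, plus) on GRCh38.p14.
NDUFA12: gccagcgaggcAAGATGGagttagtgcagg
NDUFA3: ccgcggagacaAAGATGGctgcgagtaagt
NDUFA6: gatgctttggcAAGATGGcggggagcggcg
NDUFA7: atcgcggacggAAGATGGcgtccgccaccc
NDUFA9: gattgtgggaaAAGATGGcggctgccgcac
NDUFB8: tgaagaaggtgAAGATGGcggtggccaggg
NDUFS4: ttgcctgcagcAAGATGGcggcggtgtcaa
NDUFS7: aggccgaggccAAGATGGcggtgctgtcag
The 8 members with the motif after the start had a median log2 fold change of -0.13. The 29 other tested members had -0.16, and include those with no window and NDUFA5, which has the motif before its start. By date the medians were -0.55, 0.35 and -0.20 for the 8 and -0.53, 0.29 and -0.15 for the 29. The difference between them was not tested.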

How the data were processed

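Per the labels, RNA from anti-Flag precipitates of HEK293 cells was extracted and made into libraries with the NEBNext Ultra II RNA kit. Per the submitters' processing notes, STAR 2.5, HTSeq 0.6.1 and hg19 were used. The authors deposited whole-number counts per gene and a gene length, and the counting mode, strand setting and annotation release are not given in the sources used here. The sum of counts per library, 20233819 to 34408699, sets the counting error.

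All genes that passed filterByExpr of edgeR 4.0.16 (R 4.3.3) (min.count 10, min.total.count 15) went into 1 quasi-likelihood fit of the counts with TMM scaling and without a block. DESeq2 1.42.0, limma-voom (limma 3.58.1) and a date block were alternatives. The Benjamini-Hochberg threshold was 0.05 over 16233 genes. Log2 ratios by date used a prior count of 2, and RPKM used the deposited gene length. The length trend was removed by loess (span 0.5). Tables and figures were made in Python 3.11.15. The edgeR fit of mimic against control without a block was tested on simulated counts with known changes. The other fits were not tested in this way. The simulated counts held no difference between dates and none for the libraries without intestine and plasma cell transcripts. What the fit detects with such differences present was not tested.

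The shared date in the labels pairs the libraries. Deviations of the 2 libraries of a date correlated at 0.0466, 0.154 and 0.513, and the mimic library of 22 August correlated more with the control library of 5 September (0.243).

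Members and lists were chosen with earlier results of these data known. Values in every library were given for core subunits, for the 4 other members with the lowest unadjusted p in each direction, and for the 3 highest and 3 lowest in mean RPKM. For other lists the 2 genes with the lowest p were named. Other named genes were chosen after their values were seen, as were the alternatives that use the libraries without intestine and plasma cell transcripts (a summed list under 1 CPM) and those that leave out a library from the test of dates. Some results are not reported here.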

Additional observations from a re-analysis of the deposited data

Results flagged for a closer look

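The complex I members moved in opposite directions on the first 2 dates. Their median log2 ratio of mimic over control was -0.527 on 22 August and 0.297 on 5 September, which drew attention because 36 of 37 members were lower on the first date and 8 of 37 on the second. The difference was not tested, as there was 1 library per mimic and date. The libraries that were low for complex I were also those at 0.127 and 0.116 CPM of the intestine and plasma cell list, and the part of that difference in the result was not tested.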

How the results depend on the processing

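Over 22 alternative settings, 13 of 37 members kept the direction of their log2 fold change and 24 changed it in at least 1. Genes called higher and lower over the whole table numbered 0 and 0 in edgeR. DESeq2 gave 2 and 3, DESeq2 plus the replicate block 4 and 7, edgeR without the filter on low counts 6 and 14, and edgeR with the filter 1034 and 1290 under the date block and the libraries without intestine and plasma cell transcripts as terms. That last fit called 1 member higher and 11 lower, and every other fit of mimic against control that was run called 0 members. The replicate block alone changed no call. The member median of -0.15 ran from -0.31 (without the control library of 5 September) to -0.03 (without the mimic library of 22 August) when single libraries were left out, was 0.04 without both libraries of 22 August, -0.31 without those of 5 September, -0.14 with the replicate block and -0.11 with the length trend removed. Members called between dates at an adjusted p under 0.05 ran from 0 to 19 with 1 library left out, without the share of all genes beside them. NDUFB1 turned to -0.0148 with the replicate block, -0.0280 with DESeq2 and the block, -0.00761 with limma-voom and -0.0166 with block and intestine term. NDUFS1 turned to 0.0107 with upper-quartile scaling and NDUFB8 to -0.000874 without the filter. Without both libraries of 22 August, 16 members turned above 0, among them NDUFS1 (0.0360), NDUFAB1 (0.0550), NDUFB4 (0.0361), NDUFB3 (0.0914), NDUFC2 (0.103) and NDUFA4 (0.0765), and MT-ND5 (-0.0117) and PPRC1 (-0.0950) turned below 0. Without those of 5 September, 7 members turned below 0, among them NDUFA1 (-0.426), NDUFA2 (-0.106), NDUFB5 (-0.0927), NDUFB8 (-0.311), NDUFV2 (-0.00397) and NDUFB1 (-0.573). Without those of 18 September 3 members turned, and NDUFS1 was 0.0369 and NDUFB8 -0.364. In the 4 libraries with intestine transcripts 3 members turned, and NDUFA2 was -0.0545, NDUFB8 -0.0635 and MT-ND4L -0.0120. With single libraries left out, the ranges of 15 members crossed 0, at -0.0679 to 0.0296 for NDUFS1, -0.393 to 0.00250 for NDUFB3, -0.234 to 0.227 for NDUFA1, -0.0841 to 0.354 for NDUFA2, -0.00187 to 0.368 for NDUFB5, -0.330 to 0.0126 for NDUFB10, -0.360 to 0.794 for NDUFB8, -0.00859 to 0.605 for NDUFV2, -0.368 to 0.301 for NDUFB1, -0.334 to 0.0369 for NDUFA4, -0.314 to 0.00367 for NDUFA12, -0.136 to 0.169 for NDUFA5, -0.187 to 0.0358 for NDUFA9, -0.164 to 0.104 for NDUFB2 and -0.290 to 0.0718 for NDUFS6. The range of PPRC1 was -0.00128 to 0.374. The cause was not tested. Few counts limit NDUFB8, NDUFA7, NDUFV2 and NDUFA13.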
